A study of Mus musculus with 7 samples.

Results

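Levels of 10 well-known immediate early genes were followed in sorted muscle stem cells (MuSCs). They are Egr1, Egr2 and Egr3, the nuclear receptor genes Nr4a1, Nr4a2 and Nr4a3, the Krüppel-like factor genes Klf2, Klf4 and Klf6, and Ier2. They were chosen by name, with earlier results of these data known, and the table of counts held all 10 among its 13280 genes. RNA-seq compared Gli1+ with Gli1- MuSCs of Gli1-CreERT2; R26-tdT mice, whose strain the labels give as C57BL/6 and the methods as a C57BL6/129 mixed background. All libraries came from adult mice that had received tamoxifen (TAM), 3 days after the injection, and comprised 4 Gli1+ samples, sorted as tdT+, and 3 Gli1- samples, sorted as tdT-. Both groups therefore carried the same alleles and the same TAM treatment, and males and females were used in the study. CreERT2 is inserted in Gli1 and disrupts the allele that carries it, so the methods keep it heterozygous, and tdT marks cells in which Gli1 was active at the time of TAM. The cells were gated as CD45-CD31-Sca1-VCAM1+ after enzymatic digestion of hindlimb muscle at body temperature, and each library was made from 1 ng of total RNA. The labels and methods leave unstated if several mice were pooled for a library, so p-values measure the spread between these libraries.

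Immediate early genes are transcribed within minutes of a stimulus, because the factors that activate them, among them SRF and CREB, are already present in the resting cell. Their products are mostly short-lived transcription factors, which then act on slower genes. In muscle, many of them are also known to be switched on while the tissue is digested and sorted, so a level in freshly isolated MuSCs can hold both a state in the animal and a response to the isolation. These bulk data cannot tell these apart, nor fewer cells with a transcript from less transcript per cell.

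The libraries were unequal in how many genes they covered. Reads assigned to genes numbered 12808512 to 19662721 per Gli1- library and 10595181 to 13781283 per Gli1+ library. Genes with at least 1 read numbered 5471 to 10829 in Gli1- MuSCs and 8579 to 10016 in Gli1+ MuSCs, and Gli1- replicates 2 and 3 had the fewest. All 16 MuSC identity markers had reads in every library, with Chodl the most abundant at 1331 to 2158 CPM. CPM is a read count scaled to library size and, by TMM, to a common composition of the libraries. Gli1 averaged 26.6 ± 18.4 CPM over the 4 Gli1+ libraries (SD). In Gli1- MuSCs it averaged 3.86 ± 6.68 CPM (SD), with reads in 1 of the 3 libraries. That library was at 11.6 CPM, above the lowest Gli1+ library at 7.28 CPM, so the groups overlapped (unadjusted p = 0.322 and adjusted p = 1 in edgeR). Actb was at 1610 ± 406 and 1712 ± 273 CPM and Gapdh at 48.7 ± 18.4 and 38.6 ± 11.2 CPM in the same order. Because Gli1- replicates 2 and 3 stood apart in coverage, results that rest on them are also given without them. Without both, Gli1- replicate 1 is the only Gli1- library, and the fit assumes that it varies like the 4 Gli1+ libraries, so those values describe 1 library against 4 and are no test of the populations.

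Egr1 was among the most abundant transcripts of every library, while Klf2 and Nr4a2 were low in some Gli1+ libraries. By log2 fold change, Nr4a2, Nr4a3 and Klf2 differed most between the populations, all toward Gli1- MuSCs, and none passed the test after adjustment. The 10 genes took 1.72 ± 0.354% of the reads of a Gli1- library (SD, n = 3) and 1.38 ± 0.235% of those of a Gli1+ library (SD, n = 4), with ranges of 1.34 to 2.03% and 1.04 to 1.60% that overlap. Of the 10 genes, 9 had a log2 fold change (Gli1+ over Gli1-) below 0, where 34.7% of the 11134 genes tested did. Since the genes were chosen with earlier results known and their levels partly run together, this count and the medians below are descriptions. The count below 0 ran from 7, without Gli1- replicate 1 or with the replicate number as a block, to 10 over the alternatives. The members' median was -0.40 and that of all genes 0.30. Over the alternatives the members' median ran from -0.75, with Gli1- replicate 2 and Gli1+ replicate 3 left out, to -0.16 with the block. Omitting Gli1- replicate 2 alone moved it to -0.71, Gli1- replicate 3 alone to -0.23 and Gli1+ replicate 4 alone to -0.25. Since all 10 had at least 5 reads in every library, the 3697 genes of which that is also true are the closer comparison, and there the median was 0.05 and 45.5% were below 0. Of these 3697 genes, 2.14% were lower in Gli1+ MuSCs without overlap and 0.46% at an unadjusted p under 0.05. None of the 10 passed an adjusted p of 0.05 in edgeR's quasi-likelihood test, and among all genes tested 0% did in either direction. At an unadjusted p under 0.05, 1 member (Nr4a3) was lower in Gli1+ MuSCs, against 0.611% of all genes, and 0 were higher, against 1.53%. The groups overlapped for every member, while 0.934% of all genes were lower and 2.87% higher in Gli1+ MuSCs without overlap. DESeq2 gave an adjusted p under 0.05 for 64 genes higher (0.628%) and 2 lower (0.0196%) of the 10191 it adjusted, and limma-voom for 0 genes, with 0 members among them in either. The 10 intervals of the log2 fold change held 0 for all genes but Nr4a3, and 5 of the 10 fold changes lay within 1 standard error of 0.

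**Figure D1:**
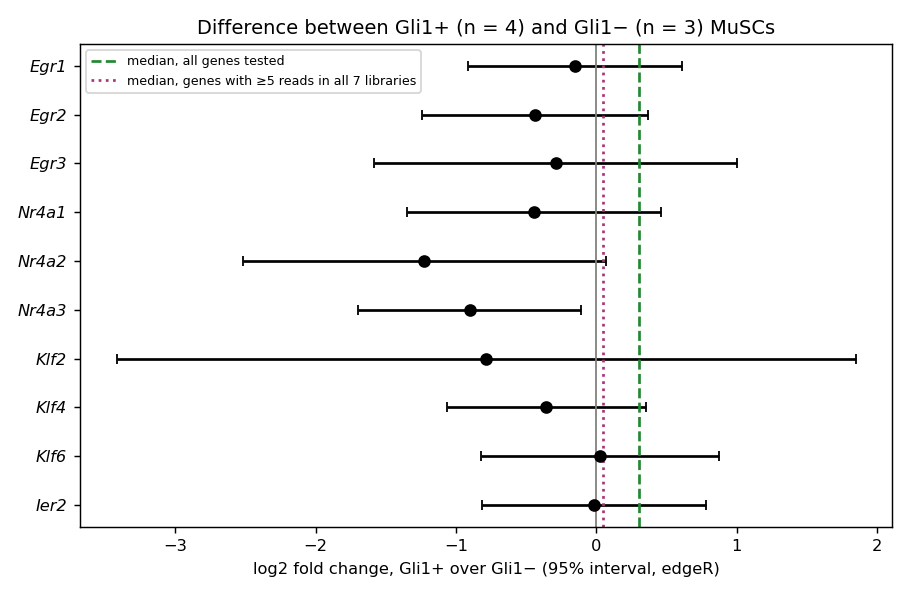
Log2 fold change of each gene, Gli1+ (n = 4) over Gli1- (n = 3) MuSCs, with its 95% interval from edgeR (points and bars). The dashed line is the median of all genes tested (0.30) and the dotted line that of the genes with at least 5 reads in all 7 libraries (0.05). Only the interval of Nr4a3 lies wholly below 0.

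The Nr4a genes encode orphan nuclear receptors, which bind DNA and activate transcription without a known endogenous hormone. They are known targets of cAMP signalling through CREB, whose binding element is built on the motif TGACG. RefSeq starts of GRCm38.p6 were available for 7 of the 10 genes (Nr4a1, Nr4a2, Nr4a3, Egr2, Klf2, Klf4 and Klf6), with 11 windows of 250 bases before a start among the 32851 windows of all genes. The sequences before the Nr4a starts are shown because the genes share this motif, while over the 7 libraries the level of Nr4a1 did not run with those of Nr4a2 and Nr4a3. They are read 5′ to 3′ on the strand of the gene, with TGACG on either strand in capitals. The stretches are chr15:101266596-101266845 on the plus strand for Nr4a1, chr2:57124004-57124253 on the minus strand for Nr4a2 and chr4:48045055-48045152 on the plus strand for Nr4a3, where the 98 bases before the annotated exon are printed. The Nr4a1 start lies inside the annotated gene, whose longest transcript begins further upstream.
Nr4a1: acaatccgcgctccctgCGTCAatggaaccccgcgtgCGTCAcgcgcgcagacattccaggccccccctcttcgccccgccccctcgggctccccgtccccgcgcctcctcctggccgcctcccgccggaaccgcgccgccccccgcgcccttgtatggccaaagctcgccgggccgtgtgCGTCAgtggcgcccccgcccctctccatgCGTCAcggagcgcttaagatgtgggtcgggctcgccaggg
Nr4a2: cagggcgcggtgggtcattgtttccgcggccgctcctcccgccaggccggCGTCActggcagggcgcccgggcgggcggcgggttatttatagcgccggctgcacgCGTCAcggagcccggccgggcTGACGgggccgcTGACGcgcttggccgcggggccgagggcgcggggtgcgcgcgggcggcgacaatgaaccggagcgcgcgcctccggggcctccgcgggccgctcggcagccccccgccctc
Nr4a3: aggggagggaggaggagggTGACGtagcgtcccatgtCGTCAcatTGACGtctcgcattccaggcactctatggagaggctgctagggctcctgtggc

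Each Nr4a window held 4 matches to TGACG, counted on both strands. They began at positions -233, -213, -69 and -40 from the start in Nr4a1, at -200, -144, -123 and -111 in Nr4a2 and at -231, -213, -205 and -147 in Nr4a3, the last of these inside an annotated exon. At least 4 matches were present in 45 of all 32851 windows (0.137%), at least 3 in 0.688% and at least 1 in 17.8%. The longer palindrome TGACGTCA, which contains the motif on both strands, was in 1.55% of all windows and in none of the members' windows. These windows were rich in G and C, at 74.4% for Nr4a1, 80.0% for Nr4a2 and 63.6% for Nr4a3 against a median of 52.4%. A match to letters is a description of the sequence and says nothing of binding in these cells.

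**Figure D2:**
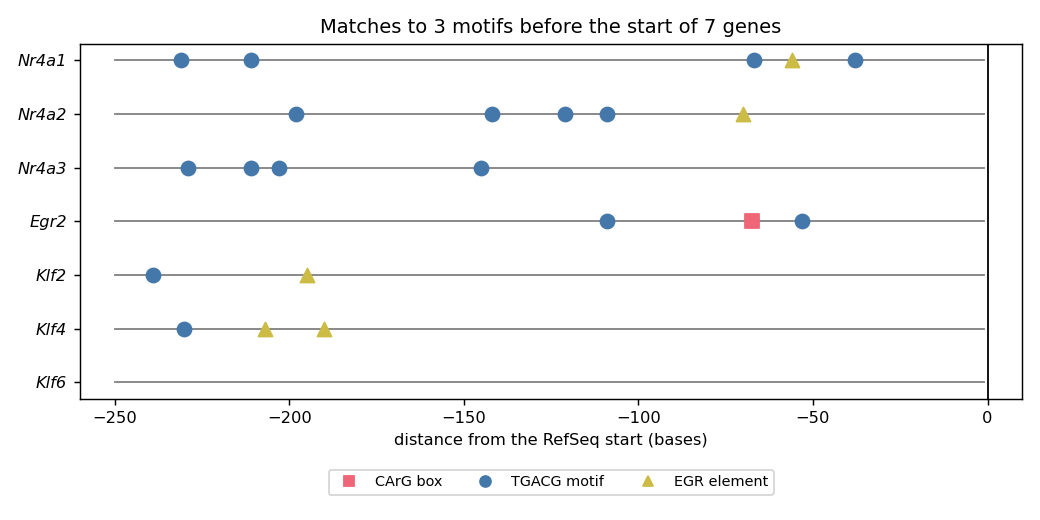
Positions of matches to 3 motifs in the 250 bases before the RefSeq start of 7 genes, by distance from the start in bases, with a symbol at the middle of each match. For Egr2, the window with the most matches is drawn. The 3 Nr4a windows each hold 4 TGACG matches, Egr2 holds the CArG box and Klf6 holds none of the 3.

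Nr4a3 (ENSMUSG00000028341, chromosome 4 of GRCm38 from 48045153 to 48086447, plus strand), which encodes NOR1, had the smallest p of the 10 genes. It was at 393, 882 and 886 CPM in Gli1- replicates 1, 2 and 3. In Gli1+ replicates 1 to 4 it was at 413, 246, 457 and 425 CPM. The groups overlapped through Gli1- replicate 1 alone, since the other Gli1- libraries stood above every Gli1+ library. Means with SD were 720 ± 284 CPM for the 3 Gli1- libraries and 385 ± 94.3 CPM for the 4 Gli1+ libraries. On the log2 scale the fold change was -0.90 (standard error 0.37, 95% interval -1.70 to -0.11), or 1.87-fold more in Gli1- MuSCs (1.08 to 3.24). In edgeR's quasi-likelihood test the unadjusted p was 0.0288 and the adjusted p 1. The 2 high libraries are those with the fewest genes detected, and without them the log2 fold change, now of 4 Gli1+ libraries over Gli1- replicate 1 alone, was -0.03. Leaving out Gli1- replicate 2 alone or Gli1- replicate 3 alone gave -0.73 each time, with unadjusted p-values of 0.118 and 0.119 in edgeR.

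Nr4a2 (ENSMUSG00000026826, chromosome 2 from 57106830 to 57124003, minus strand) encodes NURR1, known for its role in dopamine neurons, and was the least abundant of the 10 genes per length. Its level was 62.5, 150 and 92.7 CPM in Gli1- replicates 1 to 3. Its level in Gli1+ replicates 1 to 4 was 29.1, 27.7, 85.2 and 31.7 CPM. Gli1+ replicates 1, 2 and 4 thus lay below every Gli1- library, and Gli1+ replicate 3 lay among the Gli1- libraries. This gave means of 102 ± 44.2 CPM (SD, n = 3) for Gli1- and 43.4 ± 27.9 CPM (SD, n = 4) for Gli1+. The log2 fold change of -1.23 (standard error 0.60, 95% interval -2.52 to 0.07) was the largest of the 10 genes, with an unadjusted p of 0.0610 and an adjusted p of 1 in edgeR. Without Gli1+ replicate 3, an omission that by itself sets the groups apart, the log2 fold change was -1.78 (standard error 0.59). Without Gli1- replicates 2 and 3, which leaves 1 Gli1- library, it was -0.53.

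Nr4a1 (ENSMUSG00000023034, chromosome 15 from 101254269 to 101274795, plus strand), which encodes NUR77, ran at a much higher level with another order of libraries. It was at 4787, 1884 and 3002 CPM in Gli1- replicates 1 to 3, against 3238, 2662, 2389 and 1195 CPM in Gli1+ replicates 1 to 4. Gli1- replicate 2, among the highest for Nr4a2 and Nr4a3, was here below all Gli1+ libraries but replicate 4. The log2 fold change was -0.44 (standard error 0.42, 95% interval -1.35 to 0.46), and edgeR gave an unadjusted p of 0.309 and an adjusted p of 1. Omitting Gli1- replicate 1 moved it to -0.04 and Gli1- replicate 2 to -0.72, and with Gli1+ replicate 4 left out it was -0.23. Set against Gli1- replicate 1 alone, the Gli1+ libraries gave -1.01, and the block gave -0.13. The level of Nr4a3 as a percentage of that of Nr4a1 was 8.20, 46.8 and 29.5% in Gli1- replicates 1 to 3. The same percentage was 12.7, 9.26, 19.1 and 35.6% in Gli1+ replicates 1 to 4. The balance between these receptor genes thus varied widely within each population, and the ranges overlapped.

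The Krüppel-like factors are zinc finger proteins that bind GC-rich and CACCC sequences. Klf2 (ENSMUSG00000055148, chromosome 8 from 72319033 to 72321656, plus strand), known for its induction by blood flow in endothelium, varied the most of the 10 genes, with the highest library 44.9-fold above the lowest. It was at 77.4, 124 and 151 CPM in Gli1- replicates 1 to 3. In Gli1+ replicates 1 to 4 it was at 4.72, 10.8, 212 and 44.6 CPM, the lowest resting on 51 reads. Gli1+ replicates 1, 2 and 4 lay below all Gli1- libraries and Gli1+ replicate 3 above them. The log2 fold change was -0.79 (standard error 1.13, 95% interval -3.42 to 1.85), with an unadjusted p of 0.509 and an adjusted p of 1 in edgeR. Without Gli1+ replicate 3, an omission that by itself sets the groups apart, the log2 fold change was -2.55 (standard error 0.83). Without Gli1- replicates 2 and 3, which leaves 1 Gli1- library, it was -0.19.

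Klf2 levels ran with markers of endothelium, a cell type that the CD31- gate should remove. The sum over 12 endothelial markers was 161, 1320 and 387 CPM in Gli1- replicates 1 to 3. The sum was 154, 179, 1651 and 512 CPM in Gli1+ replicates 1 to 4. Of the 12 markers, 0 to 6 were at 0 in a library, and Pecam1, which encodes CD31, was the most abundant at 18.6 to 434 CPM in Gli1- and 4.51 to 334 CPM in Gli1+ MuSCs. Over the 7 libraries, Pearson's r of Klf2 with this sum was 0.73 (Spearman's rho 0.75), for Klf4 0.78 (rho 0.64) and for Nr4a2 0.68 (rho 0.61), given as descriptions of libraries that also differ in coverage. The sum of 13 immune markers, at 26.5 to 197 CPM in Gli1- and 0.185 to 318 CPM in Gli1+ MuSCs, had an r of 0.81 with Klf2 (rho 0.68). Of these 13 markers, 3 were at 0 in Gli1+ replicate 3 and 9 to 12 in each other library. The lowest sum, in Gli1+ replicate 1, rested on 1 marker, so this r describes few reads. Among the libraries with the lowest endothelial sums, Klf2 was at 77.4 CPM in Gli1- replicate 1 (sum 161 CPM) and at 4.72 and 10.8 CPM in Gli1+ replicates 1 and 2 (sums 154 and 179 CPM). Klf2 was not in a fixed ratio to Pecam1, being 28.6 to 416% of it in Gli1- and 57.3 to 240% in Gli1+ libraries. Gli1- replicate 2 and Gli1+ replicate 3 had the highest endothelial sum of each group, and leaving out both was chosen after the data were seen. They also had the highest immune, tenocyte, and pericyte and smooth muscle sums of their groups. For Klf2 and Nr4a2, Gli1+ replicate 3 was the only Gli1+ library not below every Gli1- library. Its removal therefore sets the groups apart by choice, and no p-value is given. The log2 fold change without both was -2.51 (standard error 0.91) for Klf2 and -1.39 (standard error 0.51) for Nr4a2. The part of endothelial RNA in these differences was not tested.

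**Figure D3:**
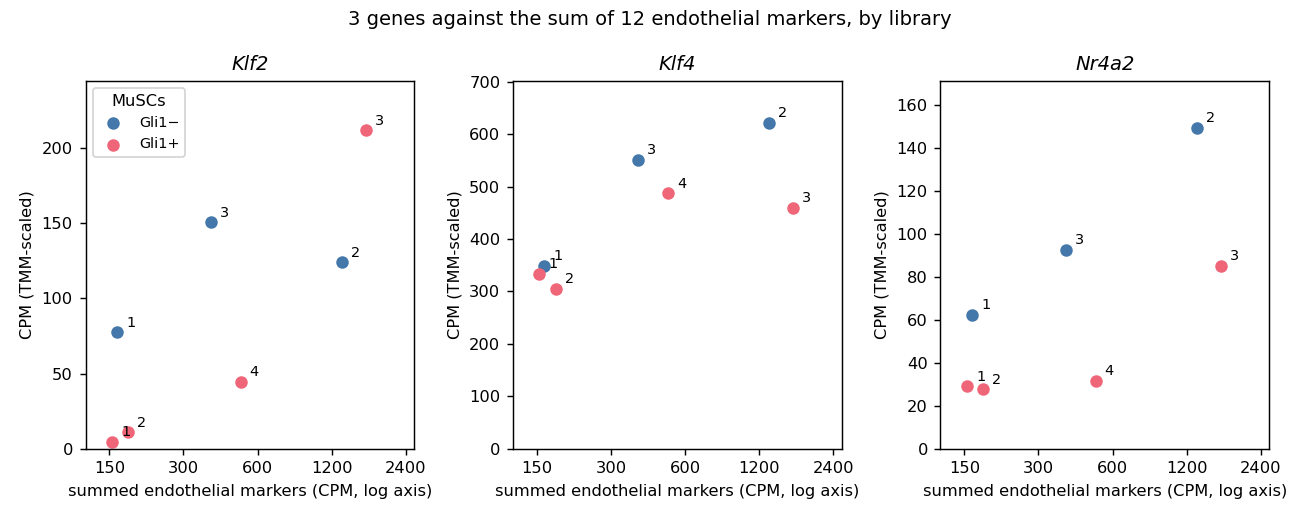
Level of Klf2, Klf4 and Nr4a2 (CPM, vertical axes) against the sum of 12 endothelial markers (CPM, log axis) in each of 3 Gli1- and 4 Gli1+ libraries, with replicate numbers. Each gene has its 2 highest libraries among those with sums of 387 CPM or more, and at sums of 154 to 179 CPM the Gli1- library lies above the Gli1+ libraries for Klf2, at 77.4 against 4.72 and 10.8 CPM.

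Klf4 (ENSMUSG00000003032, chromosome 4 from 55527143 to 55532466, minus strand), a factor used to reprogram cells to pluripotency, was steadier. It was at 349, 622 and 551 CPM in Gli1- replicates 1 to 3, against 334, 305, 460 and 487 CPM in Gli1+ replicates 1 to 4. The Gli1- libraries other than replicate 1 lay above all Gli1+ libraries. Its log2 fold change was -0.36 (standard error 0.33, 95% interval -1.06 to 0.35, unadjusted p = 0.295 and adjusted p = 1 in edgeR), and 0.18 without Gli1- replicates 2 and 3. Klf6 (ENSMUSG00000000078, chromosome 13 from 5861482 to 5870394, plus strand), a widely expressed family member, was at 520, 223 and 433 CPM in Gli1- replicates 1 to 3, against 485, 339, 544 and 229 CPM in Gli1+ replicates 1 to 4. The Klf6 libraries of both groups covered nearly the same range, and the log2 fold change was 0.03 (standard error 0.39, 95% interval -0.82 to 0.87), the only value above 0 and one whose sign changed with the scaling. Ratios of Klf2 to Klf4 were 20.0 to 27.3% in Gli1- libraries and 1.41 to 46.1% in Gli1+ libraries.

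The Egr genes encode zinc finger factors that bind the GC-rich element GCGNGGGCG. Egr1 (ENSMUSG00000038418, chromosome 18 from 34859823 to 34864984, plus strand), which links growth factor and stress signals to transcription, was the most abundant of the 10 genes and ranked between 5 and 14 among all genes in every library. It was at 13186, 6935 and 10074 CPM in Gli1- replicates 1 to 3, against 9775, 9206, 8312 and 8905 CPM in Gli1+ replicates 1 to 4. The Gli1- libraries thus held both the highest and the lowest value, and the Gli1+ libraries lay close together between them. Group means were 10065 ± 3125 CPM (SD, n = 3) against 9049 ± 610 CPM (SD, n = 4), and the log2 fold change was -0.15 (standard error 0.35, 95% interval -0.91 to 0.61, unadjusted p = 0.669 and adjusted p = 1 in edgeR). This interval corresponds to a Gli1- level of 0.656 to 1.89 times the Gli1+ level.

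Egr2 (ENSMUSG00000037868, chromosome 10 from 67535475 to 67542188, plus strand), known for its role in myelination by Schwann cells, was at 599, 320 and 744 CPM in Gli1- replicates 1 to 3, against 531, 393, 461 and 249 CPM in Gli1+ replicates 1 to 4. Its log2 fold change was -0.44 (standard error 0.37, 95% interval -1.24 to 0.36), with an unadjusted p of 0.258 and an adjusted p of 1 in edgeR. Egr3 (ENSMUSG00000033730, chromosome 14 from 70077203 to 70082614, plus strand), required in mice for muscle spindles, had high and low libraries in both groups. It was at 214, 63.1 and 289 CPM in Gli1- replicates 1 to 3, against 203, 70.6, 273 and 71.2 CPM in Gli1+ replicates 1 to 4. Its log2 fold change was -0.29 (standard error 0.59, 95% interval -1.58 to 1.00, unadjusted p = 0.632 in edgeR), and its sign changed when Gli1- replicate 3 was left out. Egr2 ran at 2.80 to 7.38% and Egr3 at 0.766 to 3.29% of the Egr1 level over the 7 libraries.

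The stretch before an Egr2 start is shown because it held both a CArG box, the element bound by SRF, and the TGACG motif. It is chr10:67537619-67537868 on the plus strand, with both kinds of match in capitals, and lies inside the annotated gene, before an internal start.
Egr2: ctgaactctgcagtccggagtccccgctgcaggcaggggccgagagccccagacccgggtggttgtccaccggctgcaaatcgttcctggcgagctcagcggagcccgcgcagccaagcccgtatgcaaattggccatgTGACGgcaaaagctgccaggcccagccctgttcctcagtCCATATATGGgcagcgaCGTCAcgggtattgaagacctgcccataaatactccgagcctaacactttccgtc

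The CArG box began at position -72 and the TGACG matches at -111 and -55. Of all 32851 windows, 1.47% held a CArG box on either strand and 56 (0.17%) held both motifs. The GCGNGGGCG element was in 4.70% of all windows, with 1 match each in Nr4a1, Nr4a2 and Klf2, 2 in Klf4 and none in the windows of Nr4a3, Egr2 and Klf6. No match says only that these letters are not in this window.

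Ier2 (ENSMUSG00000053560, chromosome 8 from 84661331 to 84662852, minus strand), a small nuclear protein gene induced together with Fos and Egr1, did not separate the populations. It was at 1388, 556 and 714 CPM in Gli1- replicates 1 to 3, against 1012, 1029, 684 and 774 CPM in Gli1+ replicates 1 to 4. The Gli1+ values lay inside the range of the Gli1- values, and the log2 fold change was -0.02 (standard error 0.37, 95% interval -0.82 to 0.78, unadjusted p = 0.961 in edgeR), with a sign that changed when Gli1- replicate 1 was left out (0.46). No member overlapped another gene in annotated exons, and at most 2.0% of the short stretches of its transcripts (Klf4) also occurred in other genes.

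**Figure D4:**
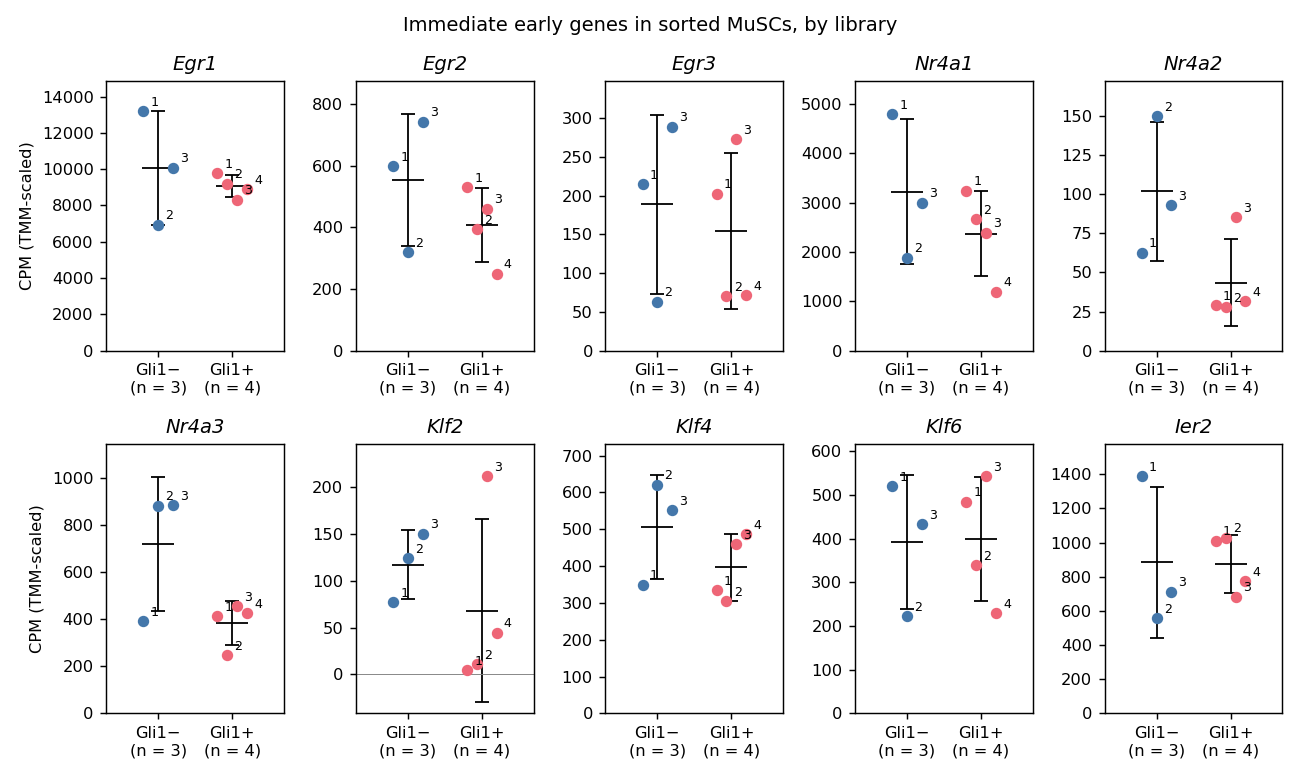
Level of each of the 10 genes (CPM, TMM-scaled) in 3 Gli1- and 4 Gli1+ libraries, with replicate numbers, the mean (long line) and the SD (bars). Gli1- replicate 2 is lowest for Egr1, Egr3, Klf6 and Ier2 and highest for Nr4a2 (150 CPM) and Klf4 (622 CPM), and the groups overlap in every panel.

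Compared per kilobase of exon, the order of the mean levels over the 7 libraries was Egr1 (2115 ± 431 CPM per kilobase, SD), Nr4a1 (780 ± 324), Ier2 (578 ± 186), Klf4 (146 ± 39.2), Egr2 (139 ± 49.9), Klf6 (90.2 ± 30.5), Nr4a3 (88.3 ± 42.0), Klf2 (48.3 ± 41.6), Egr3 (38.4 ± 22.5) and Nr4a2 (16.8 ± 11.0). Neighbours in this order were in the same order in all 7 libraries for Egr1 above Nr4a1, for Ier2 above Klf4 and for Egr2 above Klf6. The order held in 6 of 7 libraries for Nr4a1 above Ier2, Nr4a3 above Klf2 and Egr3 above Nr4a2. Klf4 and Egr2, Klf6 and Nr4a3, and Klf2 and Egr3 could not be ordered, since the upper gene was higher in 3, 4 and 4 of 7 libraries. Within a library, Klf2 ran from percentile 7.14 to 92.8 of the genes with reads and Nr4a2 from 44.1 to 85.0, while Nr4a1, Klf4, Ier2 and Nr4a3 were never below percentile 95.1.

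Across libraries the 10 genes followed 2 patterns, a division made after their values were seen and given without a test. Levels of Egr1, Egr2, Egr3, Nr4a1, Klf6 and Ier2 correlated positively in all 15 pairs over the 7 libraries (Pearson's r 0.21 to 0.90, median 0.67). Nr4a2, Nr4a3, Klf2 and Klf4 did so in all 6 pairs (0.63 to 0.89, median 0.79), and 8 of the 24 pairs between the sets were above 0 (-0.87 to 0.26). Set against each gene's own mean on the log2(CPM + 1) scale, the first set averaged 0.61, -0.64 and 0.35 in Gli1- replicates 1 to 3 and 0.31, -0.16, 0.16 and -0.63 in Gli1+ replicates 1 to 4. The second set averaged 0.03, 1.01 and 0.87 in Gli1- and -1.18, -1.15, 0.66 and -0.25 in Gli1+ replicates in the same order. Gli1- replicate 2 was thus low for the first set and high for the second, and Gli1+ replicate 4 was the other library in which members of the first set were lowest. Summed FAP and fibroblast markers, led by Gsn over all libraries, were at 3154 to 5915 CPM in Gli1- and 3009 to 11285 CPM in Gli1+ MuSCs. Their r with Nr4a1 was -0.89, and the highest sum was in Gli1+ replicate 4. There 15 of the 16 markers had reads, and Col3a1 (4131 CPM) stood above Gsn (2819 CPM). Both were at their highest there, as were Col1a1 (1666 CPM) and Dpt (741 CPM). Not all markers peaked there, with Dcn at 755 CPM against 850 CPM in Gli1+ replicate 3 and Pdgfra at 0. Ly6a (51.7 CPM) was below its level in Gli1- replicate 2 (299 CPM), but it encodes Sca1, which the gate excludes. The markers thus did not all run together, and the part of FAPs in the sum was not tested. Other sums, in the order Gli1- and Gli1+, were 25.8 to 813 and 26.0 to 1224 CPM for tenocyte (led by Thbs4), 335 to 1492 and 441 to 2671 CPM for pericyte and smooth muscle (Acta2), 322 to 412 and 226 to 683 CPM for Schwann and glial (Pmp22) and 70.9 to 140 and 40.7 to 296 CPM for mature myofibre markers (Acta1), while Lyz2 led the immune list. Endothelial markers ran with the second set (r of 0.54 for Nr4a3 to 0.78 for Klf4) and against Egr1 (-0.75) and Ier2 (-0.87), and the part of cell composition in the patterns was not tested.

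**Figure D5:**
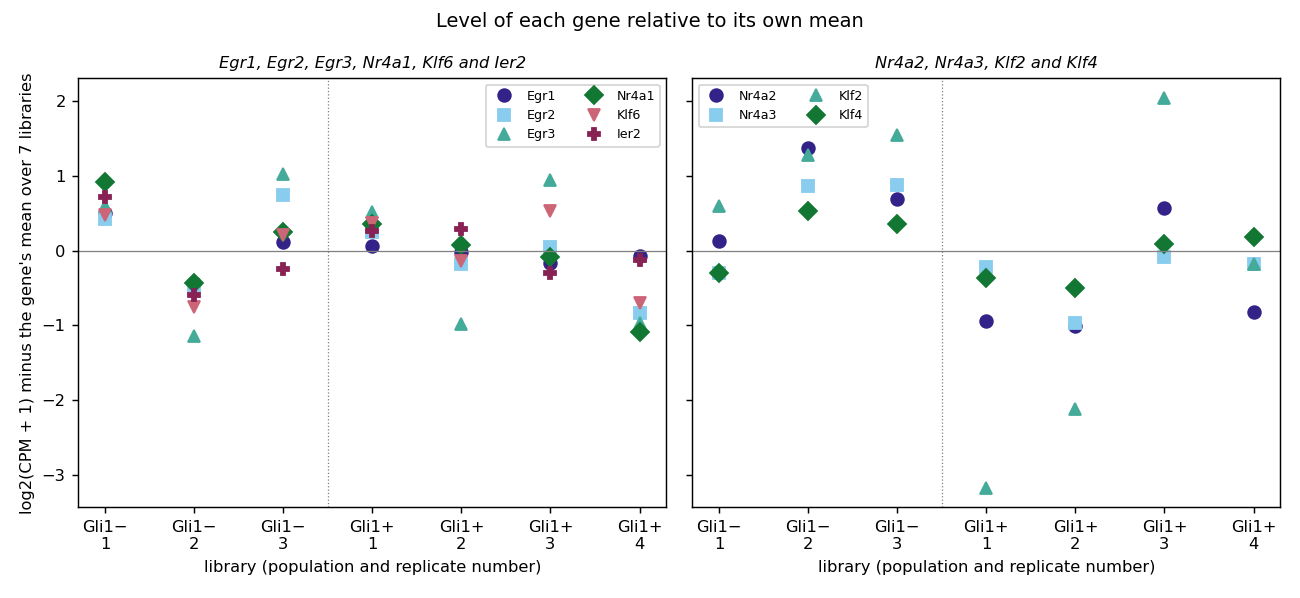
Level of each gene relative to its own mean over 7 libraries, on the log2(CPM + 1) scale, by library, with Gli1- libraries left and Gli1+ libraries right of the dotted line. The 6 genes of the left panel are low in Gli1- replicate 2 (average -0.64), where the 4 genes of the right panel are high (average 1.01).

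The AP-1 genes, whose products form the dimers that act beside EGR proteins in the early response, ran with the first set to differing degrees. Their sum over 8 genes was 18260 to 42162 CPM in Gli1- and 17357 to 33040 CPM in Gli1+ MuSCs, and its r over the 7 libraries was 0.92 with Nr4a1, 0.89 with Ier2, 0.85 with Egr1, 0.69 with Klf6, 0.68 with Egr2 and 0.46 with Egr3 (rho 0.29). With the second set it was -0.30 to -0.74. For Fos the log2 fold change was 0.04 (standard error 0.46) and for Jun -0.01 (standard error 0.51). Of the 8 AP-1 genes tested, 1 was above and 7 below 0 (median -0.37, and -0.01 without Gli1- replicate 1), and 0 passed an adjusted p of 0.05 in edgeR. Fosl2, which encodes FRA2, was at 515, 574 and 987 CPM in Gli1- replicates 1 to 3, against 422, 308, 445 and 133 CPM in Gli1+ replicates 1 to 4. Its groups did not overlap, and the log2 fold change was -1.08 (standard error 0.42, unadjusted p = 0.0232 and adjusted p = 1 in edgeR). It lay between -1.38 and -0.66 over the 18 alternatives, 15 of which gave an unadjusted p under 0.05. Atf3, a stress-induced CREB family gene, likewise did not overlap (2500 ± 404 CPM against 1765 ± 147 CPM). Its log2 fold change was -0.50 (standard error 0.30, unadjusted p = 0.117 in edgeR). Among all genes tested, 0.934% were lower in Gli1+ MuSCs without overlap, and 2.14% of those with at least 5 reads in all 7 libraries. For Fosb the groups overlapped at a log2 fold change of -0.57 (standard error 0.35).

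Among the factors that switch these genes on, Srf had the smallest p. SRF binds CArG boxes and brings in the cofactors that growth factor signalling and actin act on. It was at 223, 189 and 231 CPM in Gli1- replicates 1 to 3, against 107, 93.3, 120 and 137 CPM in Gli1+ replicates 1 to 4. Every Gli1+ library lay below every Gli1- library. The same held for 0.934% of all genes tested and 2.14% of those with at least 5 reads in all 7 libraries. Averages of Srf were 214 ± 22.0 CPM (SD, n = 3) in Gli1- against 114 ± 18.4 CPM (SD, n = 4) in Gli1+ MuSCs. The log2 fold change was -0.91 (standard error 0.31, 95% interval -1.59 to -0.23), or 1.88-fold more in Gli1- MuSCs, with an unadjusted p of 0.0124 and an adjusted p of 1 in edgeR. It ran from -1.03 to -0.82 over the 18 alternatives, with an unadjusted p under 0.05 in 17 of them and an adjusted p no lower than 0.242. Crtc3, a CREB coactivator, was at a log2 fold change of -0.83 (standard error 0.41, unadjusted p = 0.0662 in edgeR), with overlapping groups. It was at 87.1, 181 and 190 CPM in Gli1- replicates 1 to 3. Without Gli1- replicates 2 and 3, which leaves 1 Gli1- library, its log2 fold change was -0.02. Elk3, an SRF partner, was higher in every Gli1+ library (14.5 to 34.6 CPM) than in any Gli1- library. The same held for 2.87% of all genes tested. In Gli1- MuSCs, Elk3 had reads only in replicate 1 (4.71 CPM), and replicates 2 and 3, with the fewest genes detected, were at 0. The log2 fold change of 3.87 (standard error 2.87, unadjusted p = 0.202 and adjusted p = 1 in edgeR) depends on these zeros. Without Gli1- replicates 2 and 3, which leaves 1 Gli1- library, it was 2.29. Of the 28 activators tested, 11 were above and 17 below 0 (median -0.09, with a sign that changed with the library left out), and 0 passed an adjusted p of 0.05 in edgeR.

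Among the remaining lists of related genes, the corepressors and coregulators had more genes above than below 0. Of 15 further Egr, Klf and Ier family genes tested, 7 were above and 8 below 0 (median -0.02), with log2 fold changes of 0.57 (standard error 0.49) for Klf13, -0.38 (0.33) for Klf9 and -0.39 (0.38) for Ier3. Of 13 corepressors and coregulators, 10 were above and 3 below 0 (median 0.32, near the 0.30 of all genes). Nab1 and Nab2, which encode corepressors of EGR proteins, stood at -0.49 (standard error 0.68) and 0.58 (standard error 1.92) on the same scale. Ncor1, a corepressor of nuclear receptors, was at 0.36 (standard error 0.33) and Rxrb, a retinoid X receptor of the family that pairs with NUR77 and NURR1, at 1.08 (standard error 1.37). Of 38 other immediate early and dissociation-induced genes, 18 were above and 20 below 0 (median -0.02), among them Csrnp1 at -0.57 (standard error 0.40), Trib1 at -0.55 (standard error 0.39) and Errfi1 at -0.48 (standard error 0.36). An adjusted p under 0.05 in edgeR was reached by 0 genes of these lists.

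The genes most like the average profile of the 10 members over the 7 libraries, among 3687 other genes with at least 5 reads in every library, were Ptbp3 (Pearson's r 0.96, Spearman's rho 0.86), Pacsin2 (0.94, 0.86), Nipsnap2 (0.94, 0.86), Camsap2 (0.92, 0.82) and Pip5k1a (0.92, 0.96). They are the top of a search of 3687 genes over 7 libraries, in which some genes reach a high r by chance, and are given as a description. The profile averages both sets of members described above, which did not run together, and Klf2, the most variable member, weighs most in it. It averaged 0.38, 0.02 and 0.56 in Gli1- replicates 1 to 3 and -0.29, -0.56, 0.36 and -0.48 in Gli1+ replicates 1 to 4, so Gli1+ replicate 3 lay with the Gli1- libraries.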

How the data were processed

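RNA was measured in 7 libraries of FACS-sorted MuSCs. The authors deposited raw counts of reads per gene. The methods describe STAR mapping to GRCm38 transcripts followed by tximport. Different tools, CASAVA and HISAT2 2.0.5, stand in the submitters' processing notes. Use of strand in counting was not given in the sources used here. Fold changes and p-values deposited as the authors' own comparison were not used, nor were 14 columns of normalized values per sample. Of the gene identifiers, 40 had no symbol.

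Groups and replicate numbers came from the sample labels. Following the study's methods, genes were kept where 2 or more libraries had 5 or more reads. The study tested with DESeq2, which is an alternative here. Genes were compared in R 4.3.3 with the two-sided quasi-likelihood test of edgeR 4.0.16 (TMM scaling, robust estimation), with Benjamini-Hochberg adjustment over all genes tested. With 3 libraries against 4, an exact permutation test cannot go below 0.0571, so none is given. Patterns and correlations used log2(CPM + 1). Depth was 10595181 to 19662721 reads per library. Reads carried no molecular identifiers, so the lowest counts are less precise than their number alone would give.

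The members and gene lists were chosen with earlier results of these data known. Besides the members, the genes named are the 3 with the smallest p of each gene list, Srf, Nab1, Nab2, Fos and Jun, the most abundant marker of each cell type list, the 5 genes most like the members' average profile, and Gli1, Actb and Gapdh. Coordinates and exon lengths came from GENCODE M21 (GRCm38) and sequences before starts from RefSeq (GRCm38.p6), both strands searched. Alternatives were other scalings and filters, DESeq2 1.42.0, limma-voom (limma 3.58.1) with quality weights, a non-robust edgeR fit, a block for the replicate number, omission of each library, and, for likeness, log2(CPM + 5). Leaving out Gli1- replicate 2 with Gli1+ replicate 3, and Gli1- replicates 2 and 3, was added after seeing the data. The tests were checked on simulated data. At the spread that edgeR estimated for these libraries, edgeR recovered few of the changed genes and DESeq2 also called many unchanged ones. With the spread fixed at a smaller value, edgeR recovered most of the larger changes. Since the first setting came from edgeR's own estimates, it does not rank the tools for the real data.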

Additional observations from a re-analysis of the deposited data

Results flagged for a closer look

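Nr4a2 in Gli1+ MuSCs held 1 library far from the other 3, since Gli1+ replicate 3 was at 85.2 CPM and the others at 27.7 to 31.7 CPM. The gap was 0.931 of the range of the 4 libraries, past the 95% critical value of Dixon's test, which chance exceeds in about 1 of 20 groups, and 10 genes were looked at. The same library had the highest Klf2 (212 CPM), the highest endothelial marker sum (1651 CPM) and the highest immune marker sum (318 CPM) of the 7. Its tenocyte (1224 CPM), pericyte and smooth muscle (2671 CPM), Schwann and glial (683 CPM) and mature myofibre (296 CPM) sums were also the highest. Only the FAP and fibroblast sum was higher in another library. The part of these in its Nr4a2 level was not tested.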

How the results depend on the processing

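No member reached an adjusted p of 0.05 under any of the 18 alternatives, and the lowest adjusted p was 0.181 (Nr4a3 without Gli1- replicate 1). Nr4a1, Nr4a2, Nr4a3, Egr2 and Klf2 stayed below 0 in all 18. Nr4a3 had an unadjusted p under 0.05 in 13 of 18 (log2 fold change -1.21 to -0.03), Nr4a2 in 7 (-1.78 to -0.53) and Klf2 in 3 (-2.77 to -0.19, the lowest with limma-voom). Among these, the fits without Gli1+ replicate 3 set the Nr4a2 and Klf2 groups apart by the choice of library. The fit without Gli1- replicate 1 does the same for Nr4a2 and Nr4a3. These counts therefore describe the settings and give no support to a difference. Members at an unadjusted p under 0.05 and lower in Gli1+ MuSCs ranged from 0, without Gli1- replicate 2, Gli1- replicate 3 or Gli1+ replicate 2, to 3 without Gli1+ replicate 3 and with limma-voom. Over all genes, DESeq2 called 64 higher and 2 lower, and leaving out 1 library gave 0 to 2 higher. The cause was not tested. The alternative without Gli1- replicates 2 and 3 has 1 Gli1- library and is a description. Scaling to library totals, the filter of 5 reads in all 7 libraries and limma-voom turned Klf6 to -0.026, -0.0050 and -0.055, and limma-voom turned Ier2 to 0.14 and Jun to 0.25. Leaving out 1 library moved Egr1 from -0.36 to 0.087, Egr3 from -0.72 to 0.15, Klf6 from -0.26 to 0.28, Ier2 from -0.26 to 0.46, Fos from -0.29 to 0.63, Jun from -0.32 to 0.73 and Nab2 from -0.0064 to 1.5. Leaving out Gli1- replicate 2 with Gli1+ replicate 3 gave -0.44 for Klf6, -0.14 for Klf13 and -0.20 for Fos. Leaving out Gli1- replicates 2 and 3 gave 0.18 for Klf4, -0.38 for Klf6, -0.057 for Rxrb, 0.061 for Trib1 and -0.69 for Fos.

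The median log2 fold change of all genes was 0.30 and moved to 0.93 with limma-voom, 0.63 without Gli1- replicate 1, 0.16 without Gli1- replicate 2, 0.52 with the block, -0.0061 with the filter of 5 reads in all 7 libraries, 0.19 without Gli1- replicate 2 and Gli1+ replicate 3, and -0.04 without Gli1- replicates 2 and 3. All 10 members lay below it except under that filter (9) and without Gli1- replicates 2 and 3 (8). The 5 genes of most similar profile kept an r of 0.91 to 0.95 on the log2(CPM + 5) scale. Over the scalings and left-out libraries, list medians ran from -0.21 to 0.09 for activators, -0.26 to 0.47 for other family genes and -0.27 to 0.25 for other immediate early genes. Without Gli1- replicate 2 the median of the endothelial list moved from 0.07 to 2.46.

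It is not stated if libraries with the same replicate number came from the same mice. Deviations of same-numbered Gli1- and Gli1+ libraries from their group means correlated at 0.24, -0.11 and 0.07, and of others at -0.24 to 0.17. With 3 such pairs, these values cannot show if the libraries were paired. With the replicate number as a block, 0 genes and 0 members passed an adjusted p of 0.05, Nr4a3 was at -0.91 (unadjusted p = 0.0491 in edgeR), and Egr3 turned to 0.00012, Ier2 to 0.12 and Jun to 0.26. Every library held 707 reads or more for all members but Nr4a2 (314 at least) and Klf2 (51 at least). Without molecular identifiers, these numbers do not show how many RNA molecules were sampled. With 3 and 4 libraries, the standard errors ran from 0.33 to 1.13. They rest on the spread between libraries, which also holds any noise from making them.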
